A study of Rattus norvegicus with 12 samples.

Results

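Macrophage and myeloid cell markers were examined in rat prostate after partial bladder outlet obstruction, with and without Eviprostat, a phytotherapeutic agent given for lower urinary tract symptoms. The markers are a fixed list of 33 genes, and a member was taken as the array's probes carrying its symbol, with the brightest probe standing for the gene. Of the 33 genes, 25 were found by the array's own symbol and 6 more (Fcgr1a, Fcgr2a, Marco, Msr1, Spi1 and Vsig4) through an older symbol, an accession or a gene ID. These 31 genes, among 18317 named genes on the array, carried 40 probes, and all 31 passed the filter on dim probes. Cd53 and Fcer1g were not analysed here.

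The animals were 10-week-old male rats in 4 groups of 5 or 6. The obstruction/Eviprostat group had a rubber ring tied around the proximal urethra and received 18 mg/kg Eviprostat per dose (36 mg/kg daily) for 5 days from the day after surgery. The obstruction/vehicle group had the same ring and received 0.1% Tween 80 over the same days. The sham/Eviprostat and sham/vehicle groups had a sham operation and were dosed from 5 days after it, so obstructed and sham animals also differed in the interval between surgery and dosing. Prostates were removed 2 h after the last dose. The labels give no strain. They call the 3 arrays of a group biological replicates, but the RNA was from pooled prostate tissue of each group, so the p-values below measure the spread between arrays and not between animals.

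Each of the 12 arrays compared a group's RNA in the red dye (Cy5) with sham/vehicle RNA in the green dye (Cy3), and the values below are log2 ratios of Cy5 to Cy3. The sham/vehicle arrays therefore carried the same RNA in both dyes. Dyes were never swapped, and the sham/vehicle RNA was labelled from 1500 ng where the other groups had 300 ng. Each of 3 slides held 1 array of every group, and a group kept its place on all slides, so its place and its treatment cannot be told apart. The share of probes well above background in Cy5 ran from 70.9% to 88.4% over the arrays. The 4 arrays of slide 1 were scanned on another day than those of slides 2 and 3, and their median Cy5 signal above background was 55.7 to 70.6 units, against 214 to 309. In the background fit obstruction/vehicle replicate 2 stood farthest apart. On it, 6 of 45018 spots had a local background above their own signal by more than 100 units. With them the fitted mean background was -510 in Cy5, against 7.51 without them. That fit pulled the ratios of dim probes on this array towards 0, so the main counts are given below with those of a refit without such spots, an alternative chosen after the data had been seen. In the refit, 2 such spots on sham/vehicle replicate 1 and 4 on obstruction/Eviprostat replicate 1 were left out as well. Their fits were shifted too, by less. With the spots the fitted mean Cy3 background was -156 and -113 on these arrays, against 19.5 and 17.2 without them. In Cy5 it was -44.5 and -50.7, against 3.92 and 0.0645.

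Macrophages descend from yolk sac and bone marrow progenitors, and their identity depends on the transcription factor PU.1 (Spi1) and on the growth factor receptor Csf1r. They take up antibody-coated particles through Fc receptors, which signal through adaptors with tyrosine motifs, and take up modified lipoproteins, haemoglobin complexes and sugars through scavenger receptors. In prostate they lie in the stroma and around the glands, and they increase in number in inflamed tissue. Several of the genes are shared with neutrophils, dendritic cells or all leukocytes. In whole tissue, more cells of a type and more RNA per cell cannot be told apart.

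PU.1 binds purine-rich sites, and its core letters were sought in the members' RefSeq promoters (GRCr8, 250 bases before to 50 bases after the start) to show which members share this feature. The letters searched were GAGGAA and its complement TTCCTC, on both strands. Of the 33 members, 20 had a promoter in the table, and 15 of these (75%) held the core in at least 1 promoter, against 29.2% of 27457 genes. Among the members with a promoter, 11 of the 14 that rose in obstruction held it, and so did 3 of the 5 tested members that did not (Cd86, Marco and Ptprc). A match is a description of the letters and shows no binding. The promoters of 3 members that rose and of Marco, which did not, are printed with the core in capitals.
Fcgr2a promoter, chr13:85828636-85828935, minus strand: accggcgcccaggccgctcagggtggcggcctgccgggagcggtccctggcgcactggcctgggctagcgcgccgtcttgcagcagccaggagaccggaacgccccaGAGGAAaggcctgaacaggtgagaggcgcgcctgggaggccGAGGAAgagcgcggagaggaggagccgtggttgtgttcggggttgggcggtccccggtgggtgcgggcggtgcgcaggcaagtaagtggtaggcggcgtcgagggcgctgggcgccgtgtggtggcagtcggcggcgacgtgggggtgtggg
Lyz2 promoter, chr7:54797962-54798261, minus strand: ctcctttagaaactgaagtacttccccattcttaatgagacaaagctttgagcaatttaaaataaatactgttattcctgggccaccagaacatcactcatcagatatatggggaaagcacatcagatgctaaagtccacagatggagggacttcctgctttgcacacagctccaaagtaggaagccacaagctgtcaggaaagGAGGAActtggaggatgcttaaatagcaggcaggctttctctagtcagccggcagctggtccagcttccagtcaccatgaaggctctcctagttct
Cd68 promoter, chr10:54882392-54882691, minus strand: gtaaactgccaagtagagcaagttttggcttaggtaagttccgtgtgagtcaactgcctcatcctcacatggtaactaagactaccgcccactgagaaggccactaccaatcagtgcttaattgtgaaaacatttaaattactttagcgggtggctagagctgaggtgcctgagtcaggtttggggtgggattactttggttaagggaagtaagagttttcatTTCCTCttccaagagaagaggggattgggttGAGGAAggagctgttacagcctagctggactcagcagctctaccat
Marco promoter, chr13:34201206-34201505, minus strand: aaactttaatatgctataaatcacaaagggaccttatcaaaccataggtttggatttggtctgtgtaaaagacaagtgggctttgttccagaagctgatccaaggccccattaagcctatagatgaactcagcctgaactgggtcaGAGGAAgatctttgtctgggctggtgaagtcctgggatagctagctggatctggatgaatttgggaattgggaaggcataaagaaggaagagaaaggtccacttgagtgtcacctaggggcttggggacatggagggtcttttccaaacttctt
The core stood 143 and 102 bases upstream of the annotated start in the printed Fcgr2a promoter. It stood 46 bases upstream in Lyz2 and 104 bases upstream in Marco. In Cd68 it stood 27 bases upstream and 5 bases downstream. Another Fcgr2a promoter, chr13:85826683-85826982, did not hold the core.

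The first comparison asked what obstruction did to these genes without treatment. Of the 31 markers, 24 rose in obstruction/vehicle prostate relative to sham/vehicle prostate and none fell, while 7.16% of all 36098 probes tested were higher and 4.45% lower (limma, Benjamini-Hochberg adjusted p below 0.05). Of the 25 members found by the array's own symbol, 21 rose. The median log2 difference over the 31 markers was 1.53, against -0.01 over all probes, and 19 of the markers that rose did so by at least 2-fold. In the refit without the low spots 27 rose, with a median of 1.71, against 12.8% of all probes. With the slide as a block 26 rose, against 13.3% of all probes. The arrays of the 2 groups did not overlap for 23 of the 31 markers, and 24.8% of all probes had no overlap. With median centring in place of loess, Apoe, Lgals3, Adgre1, Cd163 and Coro1a did not pass (adjusted p 0.0613 to 0.596). On slides 2 and 3 alone Cd163, Itgam, Mrc1, Msr1 and Spp1 did not pass (0.0566 to 0.125), and with only the 6 arrays compared Cd163, Itgam, Lcp1, Lgals3, Msr1 and Spp1 did not (0.0663 to 0.141).

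**Figure D1:**
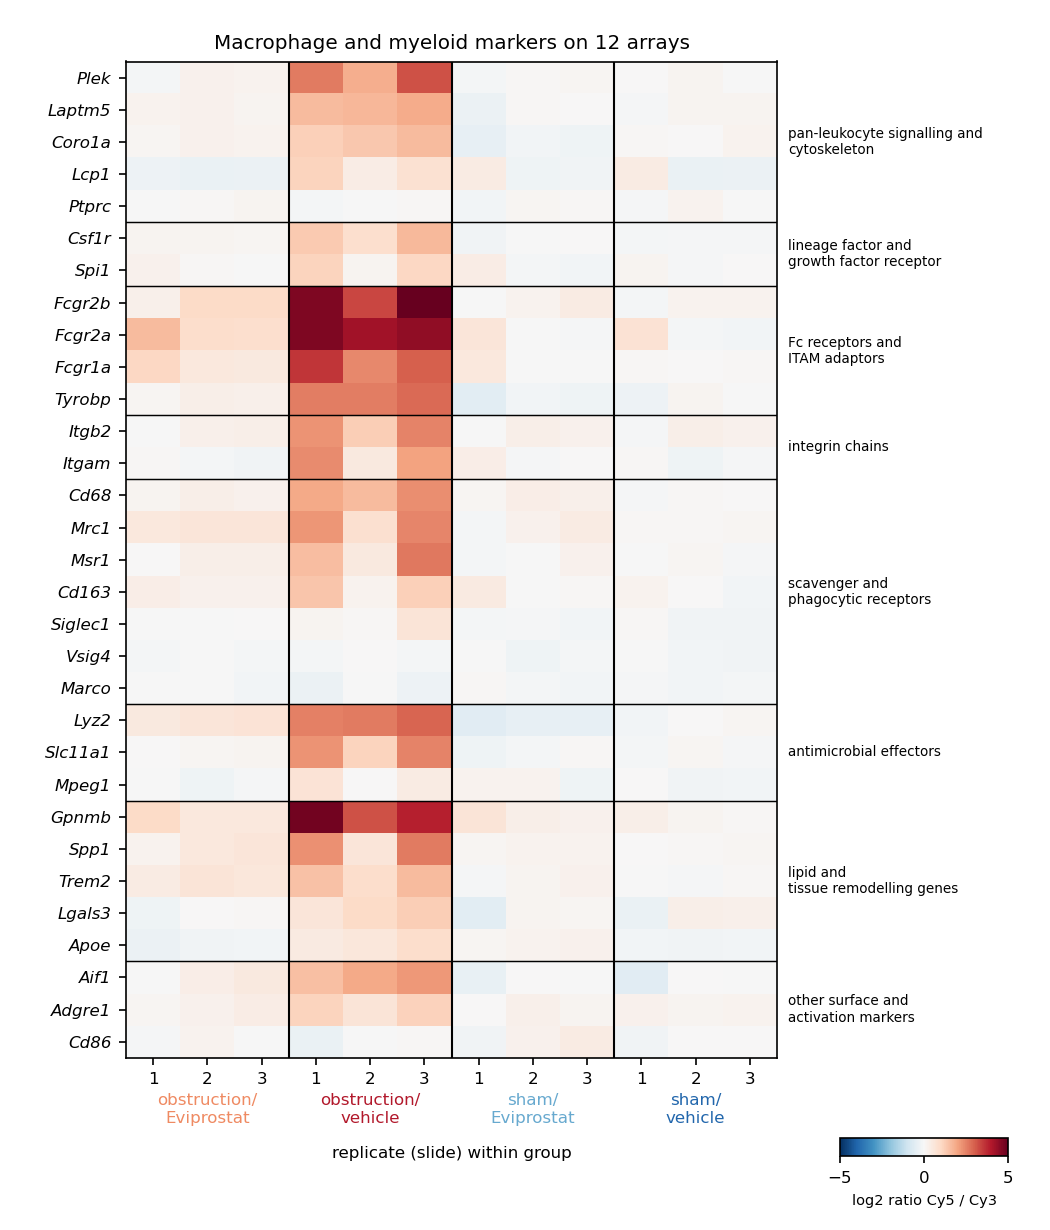
Log2 ratio of Cy5 to Cy3 for 31 macrophage and myeloid markers (down the page, grouped by role) on 12 arrays (across, 3 per group; replicate number is slide number), coloured from -5 (blue) to 5 (red). The 3 obstruction/vehicle columns hold the strong red cells, paler on replicate 2, and the other 9 columns lie close to 0.

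The second comparison asked whether Eviprostat altered these genes in obstructed animals. Of the 31 markers, 23 fell in obstruction/Eviprostat prostate relative to obstruction/vehicle prostate and none rose, while 5.89% of all probes were lower and 3.9% higher (limma, adjusted p below 0.05). Of the 25 members found by the array's own symbol, 20 fell. The median log2 difference was -1.24, against 0.01 over all probes, and 19 fell by at least 2-fold. In the refit 27 fell, with a median of -1.61, against 11.7% of all probes lower. With the slide as a block 26 fell, against 12.1% of all probes. For 25 markers the arrays of the 2 groups did not overlap, as for 24.4% of all probes. This comparison and the first share the obstruction/vehicle arrays, so their values are set side by side and no relation between them is computed. With median centring Adgre1, Aif1, Apoe, Coro1a, Laptm5, Lgals3 and Trem2 did not pass (adjusted p 0.0732 to 0.599). On slides 2 and 3 alone, and with only the 6 arrays compared, Itgam, Mrc1, Msr1, Spp1 and Trem2 did not pass (0.0566 to 0.237).

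**Figure D2:**
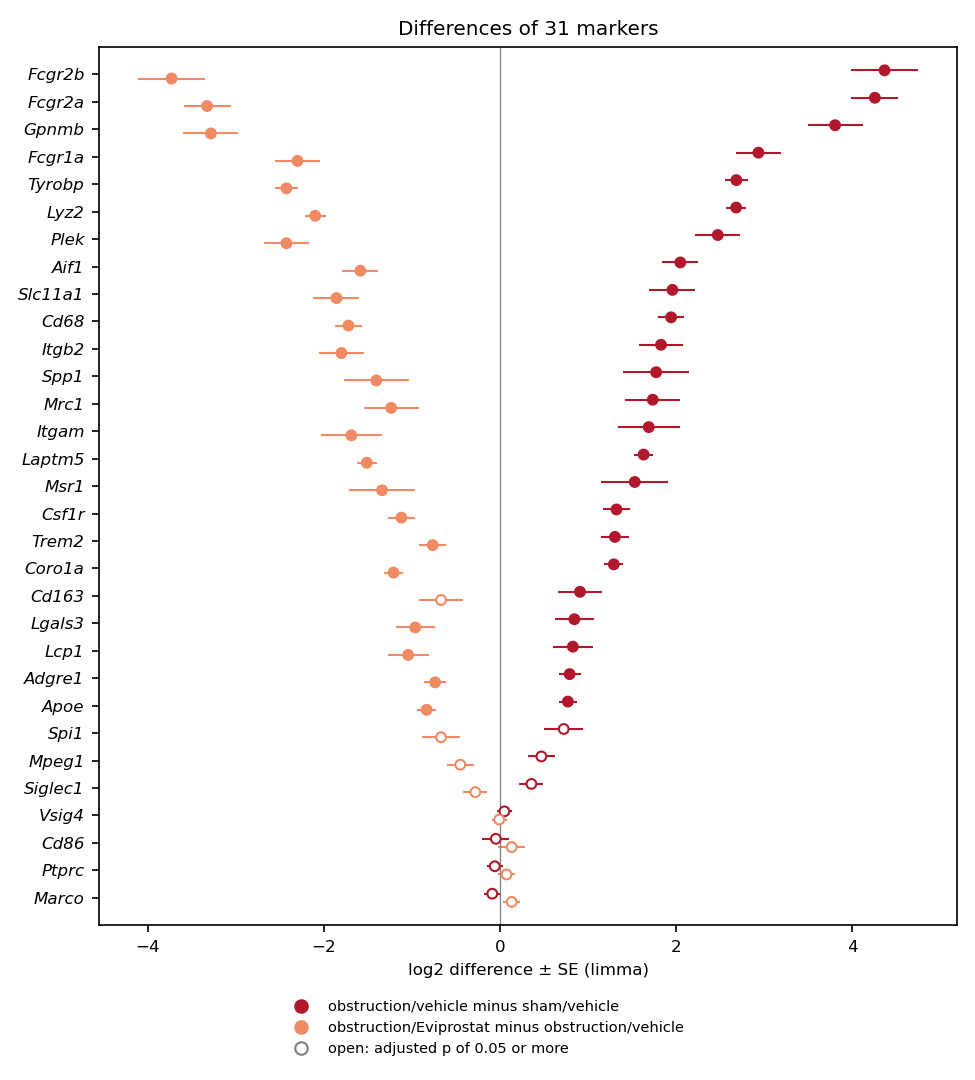
Log2 difference with its standard error (x axis) for each of the 31 markers (down the page, ordered by the difference between obstruction/vehicle and sham/vehicle), for both comparisons. Filled points passed the test. Fcgr2b, at 4.37 and -3.73, and Fcgr2a, at 4.26 and -3.33, lie farthest out. Marco, Ptprc, Cd86 and Vsig4 lie near 0 in both, and their points are open.

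The Fc receptors and the adaptor Tyrobp formed the role group with the largest changes: 4 of 4 rose in obstruction/vehicle prostate, with a median log2 difference of 3.60, and 4 of 4 were lower with Eviprostat, with a median of -2.88. Fcgr2b, the inhibitory receptor for IgG complexes (probe at chr13:86823279-86823338 of build rn3), had log2 ratios of 0.24, 0.97 and 0.95 on the obstruction/Eviprostat arrays and 4.68, 3.35 and 5.31 on the obstruction/vehicle arrays. On the sham/Eviprostat arrays it had -0.03, 0.18 and 0.41, and on the sham/vehicle arrays -0.11, 0.16 and 0.19. All 3 obstruction/vehicle arrays lay far above the other 9. The rise was 20.7-fold (log2 difference 4.37 ± 0.38 SE, adjusted p = 1.29e-05) and the fall with Eviprostat was 3.73 ± 0.38 on the log2 scale (adjusted p = 6.09e-05). In the refit obstruction/vehicle replicate 2 read 5.24 and the rise was 32.8-fold.

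Fcgr2a, an activating receptor for IgG complexes that the array names Fcgr3, had log2 ratios of 1.57, 0.90 and 0.82 on the obstruction/Eviprostat arrays and 4.65, 4.21 and 4.42 on the obstruction/vehicle arrays. The sham/Eviprostat arrays read 0.61, -0.001 and -0.05, and the sham/vehicle arrays 0.73, -0.10 and -0.13. In each of these 3 other groups the array on slide 1 read highest, and none reached the obstruction/vehicle arrays. Obstruction raised Fcgr2a 19.1-fold (4.26 ± 0.27 on the log2 scale, adjusted p = 9.37e-07), and its difference with Eviprostat was -3.33 ± 0.27 (adjusted p = 8.84e-06). Its other probes gave 4.11 and 3.30 between obstruction/vehicle and sham/vehicle. Fcgr2a, Fcgr2b and neighbouring Fc receptor genes are alike in sequence, and the position given for the brightest Fcgr2a probe (chr13:86912721-86912739) is shorter than the 60-base probes used here, so the signal of one may include another.

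Fcgr1a, the high-affinity receptor for IgG, had log2 ratios of 1.04, 0.53 and 0.50 in obstruction/Eviprostat, 3.59, 2.41 and 2.98 in obstruction/vehicle, 0.52, -0.02 and -0.01 in sham/Eviprostat and 0.06, 0.03 and 0.07 in sham/vehicle. Obstruction/vehicle again stood above every other array, and on each slide the obstruction/Eviprostat array stood above both sham arrays. The rise was 7.65-fold (2.94 ± 0.26 on the log2 scale, adjusted p = 1.28e-05), and the difference with Eviprostat was -2.30 ± 0.26 (adjusted p = 1.16e-04). A second, dimmer probe (A_44_P189496) gave a smaller rise, 0.86 ± 0.22 (adjusted p = 0.0252, and 1.28 in the refit), and a difference of -0.78 with Eviprostat (adjusted p = 0.0454). On that probe the difference between the effects of Eviprostat, -0.73, did not pass (adjusted p = 0.193), but it did in the refit (0.00116). Tyrobp (DAP12), the adaptor through which Trem2 and other receptors signal, had 0.10, 0.30 and 0.26 in obstruction/Eviprostat and 2.55, 2.57 and 2.82 in obstruction/vehicle. It had -0.53, -0.14 and -0.20 in sham/Eviprostat and -0.24, 0.13 and -0.004 in sham/vehicle. Its obstruction/vehicle arrays lay close to each other and far from the rest. The rise was 6.43-fold (2.68 ± 0.13, adjusted p = 1.11e-07), and Eviprostat lowered it by 2.43 ± 0.13 (adjusted p = 3.61e-07).

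**Figure D3:**
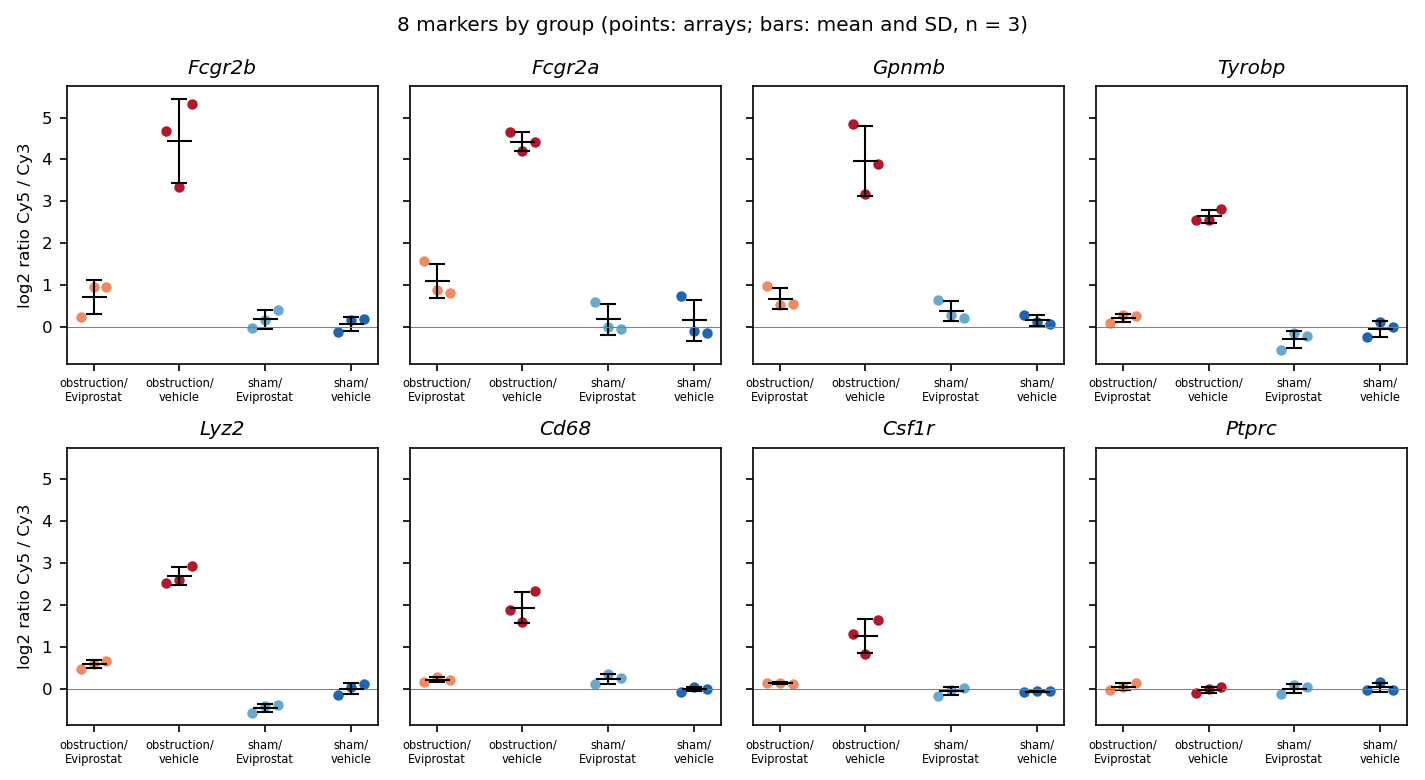
Log2 ratio of Cy5 to Cy3 (y axis) for 8 markers in the 4 groups (x axis), with points for the 3 arrays of a group and bars for their mean and SD. In all panels but Ptprc the obstruction/vehicle points lie above the others; Fcgr2a averaged 1.097 in obstruction/Eviprostat and 4.43 in obstruction/vehicle, and Ptprc averaged 0.05 and -0.03.

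All 5 genes of lipid handling and tissue remodelling rose in obstruction/vehicle prostate and all 5 were lower with Eviprostat. Gpnmb, a transmembrane glycoprotein of lipid-laden and repair-associated macrophages (probe at chr4:77458328-77458387), had log2 ratios of 0.98, 0.53 and 0.54 in obstruction/Eviprostat and 4.84, 3.17 and 3.90 in obstruction/vehicle. It had 0.66, 0.29 and 0.22 in sham/Eviprostat and 0.30, 0.12 and 0.07 in sham/vehicle. The obstruction/vehicle arrays stood clear of the other 9. The rise was 14-fold (3.81 ± 0.31, adjusted p = 8.41e-06), and the difference with Eviprostat was -3.29 ± 0.31 (adjusted p = 3.59e-05).

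Spp1 (osteopontin, a secreted matrix and adhesion protein) had log2 ratios of 0.17, 0.53 and 0.59 in obstruction/Eviprostat and 2.29, 0.62 and 2.60 in obstruction/vehicle. It had 0.11, 0.17 and 0.19 in sham/Eviprostat and 0.01, 0.07 and 0.11 in sham/vehicle. Obstruction/vehicle replicate 2 was the low array, and it read 2.60 in the refit. The signal was well above background on all obstructed arrays and on 2 arrays of each sham group. The difference between obstruction/vehicle and sham/vehicle was 1.77 ± 0.37 (adjusted p = 0.00864) and 2.44 ± 0.10 in the refit (adjusted p = 4.96e-09). With Eviprostat it was -1.41 ± 0.37 (adjusted p = 0.0337), a call lost on leaving out obstruction/vehicle replicate 1 (adjusted p = 0.131) or 3 (0.139), any obstruction/Eviprostat array (0.0824 to 0.107) or 4 of the 6 sham arrays (0.0507 to 0.0527), but not replicate 2.

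Trem2, a lipid-sensing receptor that signals through Tyrobp, had log2 ratios of 0.40, 0.65 and 0.56 in obstruction/Eviprostat and 1.46, 0.87 and 1.57 in obstruction/vehicle. It had -0.04, 0.14 and 0.21 in sham/Eviprostat and -0.02, -0.06 and 0.07 in sham/vehicle. Here the obstruction/Eviprostat arrays lay between the others, below every obstruction/vehicle array and above every sham array. The rise in obstruction was 1.31 ± 0.16 (adjusted p = 1.71e-04) and the difference with Eviprostat -0.77 ± 0.16 (adjusted p = 0.00842). Lgals3 (galectin-3, a galactoside-binding lectin also made by epithelium) rose by 0.84 ± 0.22 (adjusted p = 0.0266) and was 0.96 lower with Eviprostat (adjusted p = 0.0156). Its rise was lost without obstruction/vehicle replicate 3 (adjusted p = 0.122) or sham/vehicle replicate 1 (0.0893), and its fall without obstruction/vehicle replicate 3 (0.0732) or obstruction/Eviprostat replicate 1 (0.06). Apoe, the apolipoprotein of cholesterol efflux, rose by 0.77 ± 0.11 (adjusted p = 4.79e-04) and was 0.84 lower with Eviprostat (adjusted p = 3.14e-04).

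Of the antimicrobial genes, Lyz2 and Slc11a1 rose and fell in the same way, and Mpeg1 did not pass. Lyz2, lysozyme of macrophages and granulocytes (probe at chr7:56629170-56629966, named Lyz on the array), had log2 ratios of 0.48, 0.60 and 0.67 in obstruction/Eviprostat and 2.53, 2.59 and 2.93 in obstruction/vehicle. It had -0.57, -0.41 and -0.39 in sham/Eviprostat and -0.14, 0.03 and 0.12 in sham/vehicle. The 4 groups did not overlap for this gene. The rise in obstruction was 6.42-fold (2.68 ± 0.12, adjusted p = 5.3e-08) and the difference with Eviprostat -2.10 ± 0.12 (adjusted p = 4.61e-07). Lysozyme genes are near copies of each other, so the probe may read more than one. Slc11a1 (NRAMP1, a divalent metal transporter of the phagosome) rose by 1.96 ± 0.26 (adjusted p = 4.15e-04) and was 1.86 lower with Eviprostat (adjusted p = 7.03e-04). Mpeg1 (perforin-2, a pore-forming protein) differed by 0.47 ± 0.16 in obstruction (adjusted p = 0.0766, 0.0139 with the slide as a block and 0.014 in the refit) and by -0.45 ± 0.16 with Eviprostat (adjusted p = 0.0984, 0.018 with the block and 0.0155 in the refit).

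Both integrin chains rose and were lower with Eviprostat. Itgb2 (CD18, the common beta chain of leukocyte integrins) had log2 ratios of -0.001, 0.26 and 0.30 in obstruction/Eviprostat and 2.26, 1.23 and 2.48 in obstruction/vehicle. It had -0.003, 0.30 and 0.23 in sham/Eviprostat and -0.04, 0.30 and 0.22 in sham/vehicle. The obstruction/Eviprostat arrays overlapped both sham groups, and the obstruction/vehicle arrays lay above all 9. The differences were 1.83 ± 0.25 in obstruction (adjusted p = 5.61e-04) and -1.80 ± 0.25 with Eviprostat (adjusted p = 7.21e-04). Itgam (CD11b, the alpha chain of complement receptor 3, carried by macrophages and neutrophils) differed by 1.69 ± 0.35 in obstruction (adjusted p = 0.00792) and by -1.69 ± 0.35 with Eviprostat (adjusted p = 0.00924). Its signal was well above background on all 3 obstruction/vehicle arrays but on only 2 obstruction/Eviprostat, 2 sham/Eviprostat and 1 sham/vehicle arrays.

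The scavenger and phagocytic receptors split: Cd68, Cd163, Mrc1 and Msr1 rose, while Marco, Vsig4 and Siglec1 did not pass. Cd68, a lysosomal glycoprotein used as a general macrophage marker (probe at chr10:56495385-56495444), had log2 ratios of 0.15, 0.28 and 0.21 in obstruction/Eviprostat and 1.89, 1.60 and 2.33 in obstruction/vehicle. It had 0.11, 0.34 and 0.26 in sham/Eviprostat and -0.07, 0.04 and 0.001 in sham/vehicle. The obstruction/vehicle arrays were high, and the obstruction/Eviprostat arrays lay within the range of sham/Eviprostat. The rise was 3.85-fold (1.94 ± 0.15, adjusted p = 4.64e-06) and the difference with Eviprostat -1.72 ± 0.15 (adjusted p = 1.66e-05).

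Mrc1 (the mannose receptor) rose by 1.73 ± 0.31 (adjusted p = 0.00328) and was 1.24 lower with Eviprostat (adjusted p = 0.0259), a fall lost without any one of the obstructed arrays other than obstruction/vehicle replicate 2 (adjusted p 0.0746 to 0.111). Its log2 ratios were 0.51, 0.59 and 0.62 in obstruction/Eviprostat and 2.19, 0.82 and 2.43 in obstruction/vehicle, against -0.08, 0.21 and 0.40 in sham/Eviprostat and 0.06, 0.06 and 0.11 in sham/vehicle. The obstruction/Eviprostat arrays were again intermediate, above all 6 sham arrays. Msr1 (scavenger receptor A, for modified lipoproteins) rose by 1.53 ± 0.38 (adjusted p = 0.0209) and was 1.34 lower with Eviprostat (adjusted p = 0.0442), and these became 2.21 and -1.998 in the refit. Its signal was well above background on all 3 obstruction/vehicle arrays but on only 2 obstruction/Eviprostat, 1 sham/Eviprostat and 1 sham/vehicle arrays. The call of its fall was lost on leaving out any one array except obstruction/vehicle replicate 2 and sham/Eviprostat replicate 1, and that of its rise on leaving out obstruction/vehicle replicate 1 (adjusted p = 0.0611) or any sham/vehicle array (0.0527 to 0.0749).

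Cd163, the haemoglobin-haptoglobin receptor of resident and repair-associated macrophages, had log2 ratios of 0.33, 0.20 and 0.23 in obstruction/Eviprostat and 1.40, 0.17 and 1.20 in obstruction/vehicle. It had 0.44, -0.04 and 0.07 in sham/Eviprostat and 0.20, 0.01 and -0.15 in sham/vehicle. Obstruction/vehicle replicate 2 fell within the range of the other groups. It read 1.17 in the refit. The rise was 0.91 ± 0.25 (adjusted p = 0.038, and 5.8e-04 in the refit). It was lost on leaving out any one array other than obstruction/vehicle replicate 2 and sham/Eviprostat replicate 1 (adjusted p 0.0511 to 0.159). With Eviprostat the difference of -0.67 ± 0.25 did not pass (adjusted p = 0.133), but it did with the slide as a block (0.0222) and in the refit (-0.89, adjusted p = 0.00408).

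Marco, a scavenger receptor of marginal zone and alveolar macrophages, had log2 ratios of -0.02, -0.02 and -0.13 in obstruction/Eviprostat and -0.31, -0.01 and -0.26 in obstruction/vehicle. It had 0.06, -0.10 and -0.13 in sham/Eviprostat and -0.05, -0.14 and -0.11 in sham/vehicle, and the groups overlapped. The difference in obstruction was -0.09 ± 0.10 (adjusted p = 0.645). Vsig4, the complement receptor of Kupffer and other resident macrophages, differed by 0.05 ± 0.08 (adjusted p = 0.786). Siglec1 (sialoadhesin, of resident tissue macrophages) differed by 0.36 ± 0.14 in obstruction (adjusted p = 0.123, and 0.0297 in the refit) and by -0.28 ± 0.14 with Eviprostat (adjusted p = 0.252, and 0.0467 in the refit). Marco and Vsig4 had mean Cy5 intensities of 103 and 89.1 in obstruction/vehicle, the dimmest of the 31.

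Spi1 and Csf1r, the lineage factor and the receptor for CSF1, differed by less than the Fc receptors. Csf1r (probe at chr18:57177463-57178164) had log2 ratios of 0.15, 0.14 and 0.11 in obstruction/Eviprostat and 1.30, 0.83 and 1.63 in obstruction/vehicle. It had -0.16, -0.03 and 0.01 in sham/Eviprostat and -0.08, -0.07 and -0.06 in sham/vehicle. Obstruction/vehicle stood apart, with a rise of 1.32 ± 0.15 (adjusted p = 1.41e-04) and a difference with Eviprostat of -1.12 ± 0.15 (adjusted p = 6.09e-04). Spi1 had 0.23, 0.05 and -0.01 in obstruction/Eviprostat and 1.095, 0.14 and 1.05 in obstruction/vehicle, against 0.37, -0.11 and -0.14 in sham/Eviprostat and 0.12, -0.04 and 0.04 in sham/vehicle. Its obstruction/vehicle replicate 2 was low and read 0.99 in the refit. The difference of 0.72 ± 0.22 in obstruction did not pass (adjusted p = 0.0551), but it did with the block (0.00618) and in the refit (0.96, adjusted p = 5.48e-04). With Eviprostat it was -0.67 ± 0.22 (adjusted p = 0.0827, 0.0103 with the block and 0.00114 in the refit).

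Among the genes common to leukocytes, 4 of 5 rose and fell. Plek (pleckstrin, a protein kinase C substrate of platelets and leukocytes) had log2 ratios of -0.08, 0.22 and 0.16 in obstruction/Eviprostat and 2.58, 1.80 and 3.20 in obstruction/vehicle, against -0.11, 0.04 and 0.08 in sham/Eviprostat and 0.04, 0.13 and -0.01 in sham/vehicle. The obstruction/vehicle arrays alone were high. It rose by 2.47 ± 0.25 (adjusted p = 5.02e-05) and was 2.43 lower with Eviprostat (adjusted p = 7.21e-05). Laptm5, a lysosomal membrane protein of blood cells, rose by 1.63 ± 0.11 and was 1.52 lower with Eviprostat, and Coro1a, an actin-binding coronin of leukocytes, rose by 1.29 ± 0.11 and was 1.21 lower (all 4 adjusted p at most 2.39e-05). Lcp1 (L-plastin, an actin bundler) rose by 0.83 ± 0.23 (adjusted p = 0.0376), with overlapping arrays, and was 1.04 lower with Eviprostat (adjusted p = 0.0135). Its rise was lost without any obstruction/Eviprostat array (adjusted p 0.0512 to 0.0584), obstruction/vehicle replicate 1 (0.148) or 3 (0.112), or sham/vehicle replicate 2 (0.154) or 3 (0.15). Its fall was lost without obstruction/vehicle replicate 1 (0.0584) or obstruction/Eviprostat replicate 2 (0.0554) or 3 (0.052).

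Of the remaining markers, Aif1 (IBA1, a calcium-binding protein of macrophages and microglia) rose by 2.05 ± 0.20 (adjusted p = 4.04e-05) and was 1.59 lower with Eviprostat (adjusted p = 3.81e-04). Adgre1 (F4/80, an adhesion receptor, Emr1 on the array) rose by 0.79 ± 0.13 (adjusted p = 0.00146) and was 0.74 lower with Eviprostat (adjusted p = 0.00276). Cd86, a costimulatory ligand for T cells, differed by -0.05 ± 0.15 in obstruction (adjusted p = 0.894) and by 0.13 ± 0.15 with Eviprostat (adjusted p = 0.68). Its arrays overlapped in both comparisons.

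Ptprc (CD45), the phosphatase on all nucleated blood cells, did not pass by its brightest probe, and its probes differed. The brightest probe had log2 ratios of -0.04, 0.04 and 0.14 in obstruction/Eviprostat and -0.11, -0.01 and 0.04 in obstruction/vehicle, against -0.12, 0.09 and 0.05 in sham/Eviprostat and -0.04, 0.16 and -0.02 in sham/vehicle. The groups overlapped, and the difference in obstruction was -0.06 ± 0.09 (adjusted p = 0.764). A dimmer probe, A_44_P414258, had 0.04, -0.08 and 0.03 in obstruction/Eviprostat and 0.64, 0.09 and 0.88 in obstruction/vehicle, against 0.22, 0.01 and -0.26 in sham/Eviprostat and 0.03, -0.11 and -0.03 in sham/vehicle. On it the obstruction/vehicle and sham/vehicle arrays did not overlap, with a difference of 0.58 ± 0.18 (adjusted p = 0.0552, and 0.80 with adjusted p = 4.15e-04 in the refit). The region given for the brightest probe is far longer than a probe, chr13:51316811-51371847, and the other lies at chr13:51265133-51265192. In the main fit neither probe passed, and in the refit only the dimmer one did. A further probe, A_44_P236144, was well above background on only 2 arrays and was not tested. The sequences of the brightest probe and of A_44_P414258 are printed in lower case as the array gives them, so that they can be compared.
Ptprc brightest probe A_44_P135213: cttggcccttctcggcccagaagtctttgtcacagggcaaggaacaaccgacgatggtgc
Ptprc dimmer probe A_44_P414258: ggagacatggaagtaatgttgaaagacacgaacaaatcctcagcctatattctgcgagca

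Tyrobp and Csf1r also had a second probe that did not follow the first. For Tyrobp the brightest probe lies at chr1:85447221-85447280 on the plus strand and the other at chr1:85447153-85447212 on the minus strand, opposite to the first. The minus-strand probe differed by 0.43 ± 0.20 in obstruction (adjusted p = 0.22), against 2.68 for the first. For Csf1r the other probe has no position in the files and differed by -0.15 ± 0.15 (adjusted p = 0.601), against 1.32 for the first. The 4 sequences are printed so that the pairs can be compared.
Tyrobp brightest probe A_42_P807697: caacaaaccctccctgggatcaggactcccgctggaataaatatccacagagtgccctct
Tyrobp minus-strand probe A_44_P526676: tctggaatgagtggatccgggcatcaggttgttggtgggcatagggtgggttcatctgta
Csf1r brightest probe A_44_P257582: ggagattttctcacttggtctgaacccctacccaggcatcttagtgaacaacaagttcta
Csf1r other probe A_44_P226109: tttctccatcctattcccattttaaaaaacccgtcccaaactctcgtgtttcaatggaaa
Second probes of Mrc1 and Cd163 went the same way as the first but did not pass in obstruction (0.73, adjusted p = 0.0598, and 0.37, adjusted p = 0.192). Both passed in the refit (adjusted p = 1.32e-04 and 0.0127).

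The effect of the low spots on obstruction/vehicle replicate 2 can be read within slides. Over the 31 markers the median difference between obstruction/vehicle and sham/vehicle was 1.55 on slide 1, 0.76 on slide 2 and 1.72 on slide 3. Without the low spots it was 1.62, 1.79 and 1.72 on the same slides. For obstruction/Eviprostat minus obstruction/vehicle the medians were -1.41, -0.69 and -1.67, and -1.41, -1.71 and -1.67 without the low spots. In the refit 28 of 31 differences in obstruction were larger in size, none was lost and Fcgr2b, Spp1 and Msr1 moved by over 1.5 times.

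**Figure D4:**
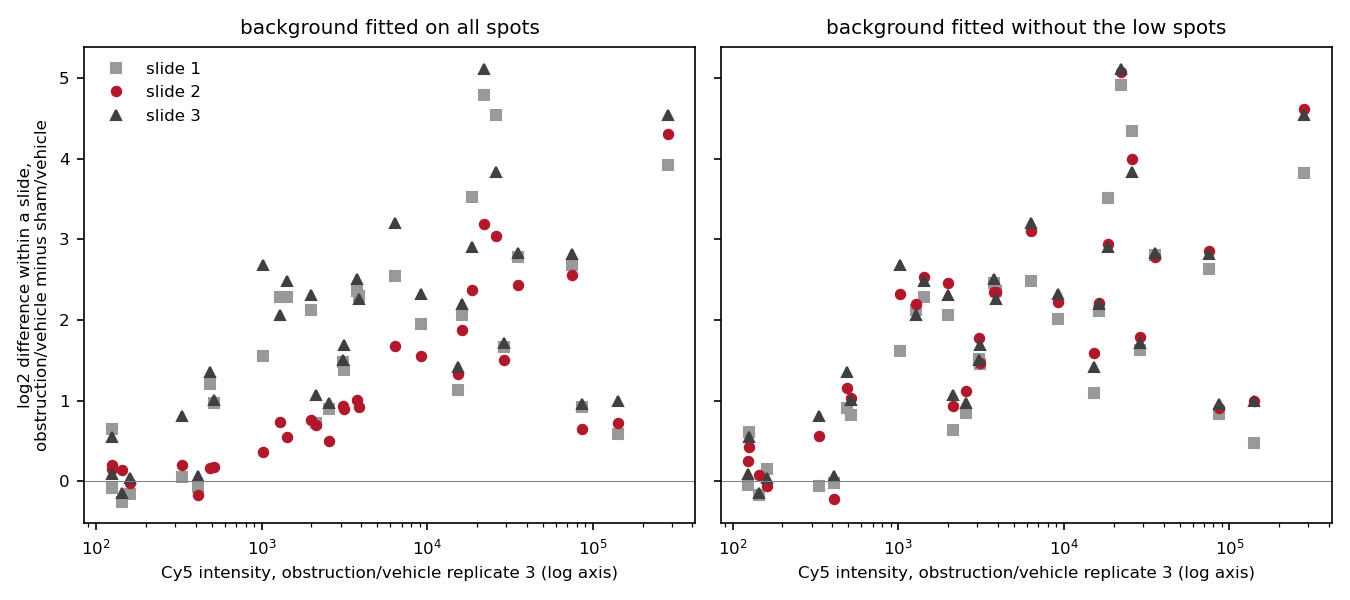
Log2 difference between obstruction/vehicle and sham/vehicle within each slide (y axis) against Cy5 intensity on obstruction/vehicle replicate 3 (x axis, log scale) for the 31 markers, with the background fitted on all spots (left) and without the low spots (right). Slide 2 runs low for dim markers on the left, where its median is 0.76, and meets the other slides on the right, where it is 1.79.

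The Cy3 channel held the same sham/vehicle RNA on every array, yet some raised markers read higher in it on the obstruction/vehicle arrays. Fcgr2a averaged 1300 Cy3 units on the obstruction/Eviprostat arrays, 4370 on the obstruction/vehicle arrays, 1190 on the sham/Eviprostat arrays and 1220 on the sham/vehicle arrays. Gpnmb averaged 468 on the obstruction/vehicle arrays and 135 on the sham/vehicle arrays, and Tyrobp 1510 and 923. Cy5 alone gave larger differences than the ratio, 6.14 for Fcgr2a, 5.45 for Gpnmb and 3.42 for Tyrobp. Why Cy3 was higher there was not tested.

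Eviprostat in sham animals was compared next. None of the 31 markers passed between sham/Eviprostat and sham/vehicle (limma), 3 had an unadjusted p below 0.05, and the median log2 difference was 0.02. Of all probes 0.87% were higher and 0.659% lower. Lyz2 differed by -0.46 (adjusted p = 0.0914), and all 3 of its sham/Eviprostat arrays lay below the sham/vehicle arrays. With the slide as a block it passed (adjusted p = 0.00413), as did Coro1a at -0.33 (0.0424) and Apoe at 0.31 (0.0492), against 3.21% of all probes higher and 3.11% lower.

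The markers in treated obstructed prostate were then set against both sham groups. Against sham/Eviprostat, 1 of 31 passed: Lyz2 was higher by 1.04 ± 0.12 (adjusted p = 4.69e-04), by 1.05, 1 and 1.07 on the 3 slides, but not with median centring (adjusted p = 0.778). Of all probes 0.97% were higher and 1.31% lower, and 7 markers had an unadjusted p below 0.05. The size of this difference draws on Lyz2 in sham/Eviprostat, where it read below sham/vehicle. In the refit Trem2 passed as well (0.46, adjusted p = 0.0239), against 1.42% of probes higher. With the slide as a block Tyrobp (0.51), Coro1a (0.41), Fcgr2a (0.91) and Aif1 (0.38) were also higher and Apoe (-0.38) was lower, against 4.43% of probes higher and 4.32% lower.

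Against sham/vehicle, none of the 31 markers passed in obstruction/Eviprostat prostate (limma), 5 had an unadjusted p below 0.05, and 0.175% of all probes were higher and 0.119% lower. Of the 31 differences 27 were positive, with a median of 0.10. In the refit 2 passed, Lyz2 at 0.57 (adjusted p = 0.0485) and Trem2 at 0.59 (adjusted p = 0.0151), against 0.421% of probes higher. With the slide as a block Fcgr2a (0.93, adjusted p = 4.56e-04), Lyz2 (0.58, 0.00196) and Aif1 (0.46, 0.0137) passed, against 1.48% of probes higher.

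The difference between the effect of Eviprostat in obstructed animals and its effect in sham animals was tested directly. It was negative and passed for 18 of 31 markers, against 4.89% of all probes lower and 3.78% higher, with a median of -1.34. In the refit 25 passed, against 9.72% of probes lower, and with the slide as a block 24, against 11.4%. The 6 further markers with the block were Lcp1 (adjusted p = 0.00108), Lgals3 (0.00163), Mrc1 (0.0241), Mpeg1 (0.0259), Spp1 (0.0362) and Cd163 (0.047). Its lowest values were -3.84 for Fcgr2b, -3.51 for Gpnmb and -3.35 for Fcgr2a. Itgam lost this call on leaving out any array but obstruction/vehicle replicate 2 (adjusted p 0.0529 to 0.0976), Trem2 on leaving out any but that one and sham/Eviprostat replicate 1 (0.0522 to 0.0797), and Adgre1 on leaving out any of 8 arrays (0.0656 to 0.078). With median centring Adgre1, Aif1, Apoe, Coro1a, Csf1r, Itgam, Laptm5, Lyz2, Trem2 and Tyrobp did not pass (adjusted p 0.0623 to 0.673), and on slides 2 and 3 alone Adgre1, Csf1r, Itgam, Itgb2, Slc11a1 and Trem2 did not (0.0511 to 0.133).

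Other genes of the same cells were read from a list of 59, of which 52 were tested. In obstruction/vehicle prostate 38 rose and none fell relative to sham/vehicle prostate, with a median log2 difference of 1.34, against 7.16% of all probes higher. In the refit 44 rose and 1 fell, with a median of 1.59, against 12.8% of probes higher and 8.57% lower. With Eviprostat 36 were lower than in obstruction/vehicle and none higher, and 40 were lower in the refit, against 5.89% and 11.7% of probes. Among those that rose were the receptor Trem1 (2.72 ± 0.30), the chemokine receptor Ccr1 (2.61 ± 0.45) and the haem-degrading enzyme Hmox1 (2.42 ± 0.12), with adjusted p from 9.34e-08 to 0.00257. In obstruction/Eviprostat prostate the complement genes C1qb (0.70) and C1qc (0.66) were above sham/Eviprostat, and C1qc (0.74) was above sham/vehicle. Of all probes 0.97% and 0.175% were higher in these comparisons. The block gave 6 genes of this list as higher and 3 as lower than in sham/Eviprostat, against 4.43% of all probes higher and 4.32% lower. Relative to sham/vehicle it gave 3 higher, against 1.48% of all probes, and 1 lower. Of 7 ligands of myeloid receptors 5 rose in obstruction and 5 fell with Eviprostat, against 7.16% of all probes higher and 5.89% lower. In obstruction they were led by the monocyte chemokine Ccl2 (3.95 ± 0.51) and complement C3 (2.84 ± 0.17). In the refit all 7 rose and all 7 fell, against 12.8% and 11.7% of probes. Of these, Csf3 was well above background only on the 3 obstruction/vehicle arrays, so it passed the filter through that group alone. The counts of ligands include Csf3.

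Of the other immune cell lists, the neutrophil list changed most. Of 10 neutrophil genes 6 rose in obstruction and 6 fell with Eviprostat, against 7.16% of all probes higher and 5.89% lower. In the refit 7 rose and 7 fell, against 12.8% and 11.7% of probes. Some of those that rose, such as Mmp8, were well above background only on the 3 obstruction/vehicle arrays. They passed the filter through that group alone, and the counts above and the list level below include them. S100a9 and Lcn2 rose by 5.58 and 3.73, with S100a9 well above background on 3 obstruction/vehicle arrays and on 2 of each other group. The level of the list was taken as the mean log2 ratio over its genes on each array. It was -0.03 to 0.03 in obstruction/Eviprostat and 1.47 to 2.26 in obstruction/vehicle. It was -0.14 to 0.03 in sham/Eviprostat and -0.04 to 0.01 in sham/vehicle. Fcgr2a, Fcgr2b, Itgam, Itgb2, Tyrobp, Lyz2 and Plek are known in neutrophils too, and the part of neutrophils in the result was not tested. Within the neutrophil list Mpo (0.04), Ltf (0.05) and Camp (0.19) did not pass in obstruction, while Mmp8 rose by 1.95. Mmp9 differed by -1.995 with Eviprostat in obstructed animals. Of 16 T and NK cell genes 1 rose (Cd8a, 0.77), of 4 B cell genes none and of 5 dendritic cell genes none (limma). Of 8 mast cell genes 2 rose (Mcpt1 and Cma1). The share of all probes higher in this comparison was 7.16%. In the refit 4 of the T and NK cell genes, no B cell gene, 1 dendritic cell gene and 3 mast cell genes rose. Also in the refit, 1 dendritic cell gene fell. Of all probes 12.8% were higher and 8.57% lower there. The block gave 5 of the T and NK cell genes as higher, against 13.3% of all probes.

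Non-immune tissue also differed between the pools. Between obstruction/vehicle and sham/vehicle 7.16% of all probes were higher and 4.45% lower, and in the refit 12.8% and 8.57%. With the slide as a block 13.3% were higher. All 4 genes tested from the urothelial list rose in obstruction: the uroplakins Upk1b and Upk3a and the keratins Krt5 and Krt7. The list levels were 0.17 to 0.31 in obstruction/Eviprostat and 2.10 to 2.78 in obstruction/vehicle. They were 0.37 to 0.51 in sham/Eviprostat and -0.10 to 0.16 in sham/vehicle. Krt7 alone was still above sham/vehicle in obstruction/Eviprostat prostate (1.31, limma adjusted p = 0.0235). All 5 smooth muscle genes tested rose, 4 of 10 prostate epithelial genes fell, 7 of 8 skeletal muscle genes fell, and 3 of 8 endothelial genes rose and 1 (Cdh5, -0.45) fell, while none of 5 red blood cell genes passed (limma). In the refit 6 endothelial genes rose and 1 fell, and 2 red blood cell genes fell, and with the slide as a block 5 endothelial genes rose, 1 fell and 2 red blood cell genes fell. Seminal vesicle genes, whose tissue adjoins the prostate, rose for 5 of 6, at 0.64 to 0.99 in obstruction/Eviprostat, 4.77 to 5.65 in obstruction/vehicle, 4.52 to 4.77 in sham/Eviprostat and 0.02 to 0.09 in sham/vehicle. The myeloid markers averaged 0.18 to 0.24 in obstruction/Eviprostat and 1.16 to 1.88 in obstruction/vehicle. In the sham groups they averaged 0 to 0.05 with Eviprostat and 0 to 0.02 with vehicle. With Eviprostat in obstructed animals all 4 urothelial genes, 4 of 5 smooth muscle genes, 5 of 6 seminal vesicle genes and 3 of 8 endothelial genes were lower than in obstruction/vehicle, and 5 of 10 prostate epithelial genes and 5 of 8 skeletal muscle genes were higher. Of all probes 5.89% were lower and 3.9% higher in that comparison. The block gave 5 endothelial genes lower, against 12.1% of all probes, and 1 higher. In sham/Eviprostat 7 of 8 skeletal muscle genes, 3 of 5 smooth muscle genes (5 with the block) and 5 of 6 seminal vesicle genes were higher than in sham/vehicle. Of all probes 0.87% were higher there, and 3.21% with the block. The part of the urothelial, muscle, epithelial, endothelial and seminal vesicle differences in those of the markers was not tested.

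**Figure D5:**
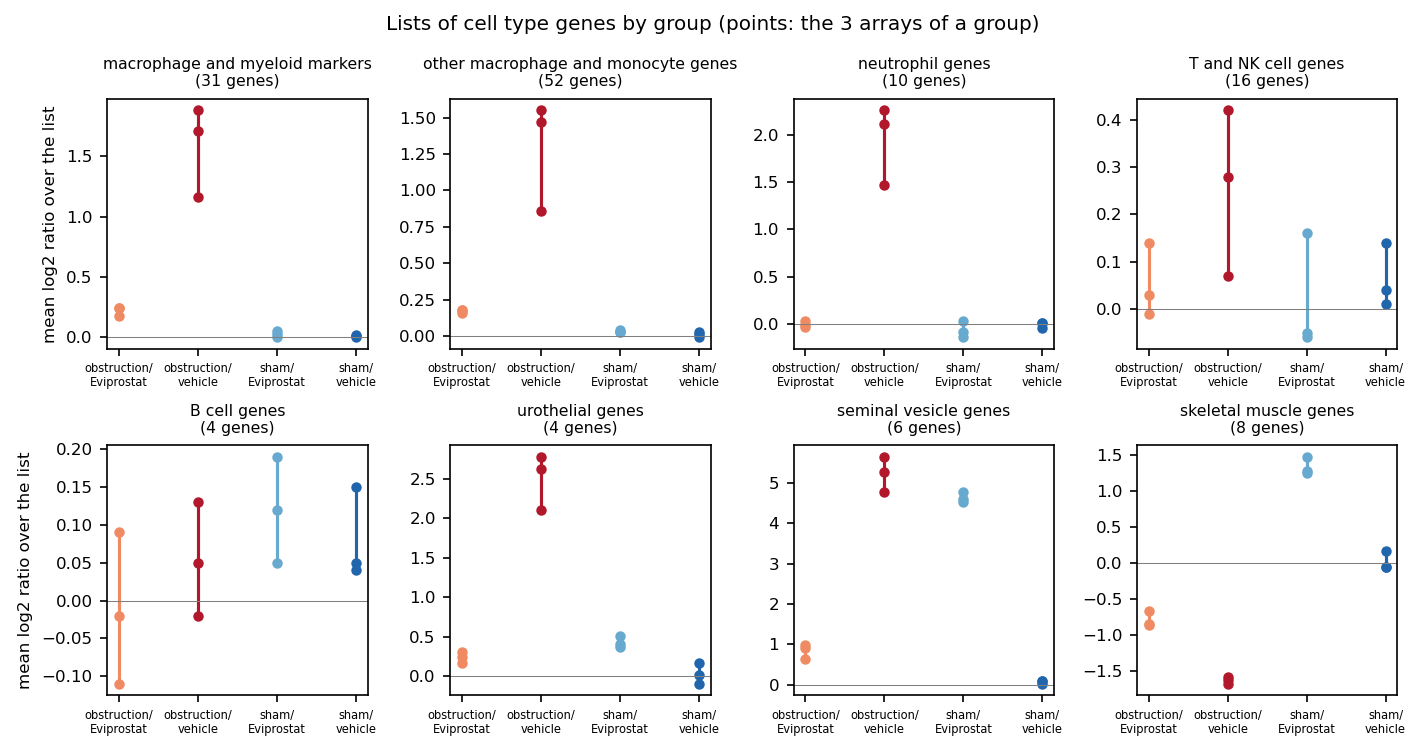
Mean log2 ratio over the genes of a list (y axis, a scale per panel) on the 3 arrays of each group (x axis), for the markers and 7 other lists. The markers lie at 0.18 to 0.24 in obstruction/Eviprostat and 1.16 to 1.88 in obstruction/vehicle, and the seminal vesicle genes are high in both obstruction/vehicle and sham/Eviprostat.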

How the data were processed

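Rat prostate RNA was hybridised to 2-colour Agilent arrays. Per the file headers and the submitters' processing notes, the deposited files hold Cy5 and Cy3 intensities, local background and a log10 ratio made with Feature Extraction 9.5.1.1 on probes of build rn3. The series' deposited value table equals that log10 ratio, which was turned to log2 as an alternative. Here, mean signals were corrected with normexp (offset 50) and normalised by loess, spots marked as outliers were left out, and probes with Cy5 well above background on at least 3 of 12 arrays were kept (36098 of 41012). All arrays entered 1 limma fit (limma 3.58.1, R 4.3.3) with 8 residual degrees of freedom, and p-values were adjusted by Benjamini-Hochberg with a threshold of 0.05. Probe-level precision is limited by 3 arrays a group. Replicate number was slide number. Deviations from group means correlated at 0.155 to 0.779 between arrays of 1 slide and at -0.702 to 0.558 between slides. Between slides 2 and 3 they correlated at 0.089 to 0.558, which overlaps the range within slides. The correlations therefore set slide 1 apart but do not tell slides 2 and 3 from each other. Every member is named; of other lists, up to 4 genes with the largest called differences in a comparison, of which 1 is not reported here. The members and lists were chosen with earlier results of these data known. The fit was tested on simulated data. Alternatives were other background corrections and filters, median centring, the scanner's log ratio, Cy5 alone, the slide as a block, subsets of arrays and other probe choices.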

Additional observations from a re-analysis of the deposited data

Results flagged for a closer look

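The effect of Eviprostat differed between obstructed and sham animals for 18 markers, by the limma test of the difference itself (adjusted p below 0.05 for each). The differences, as the effect in obstructed minus the effect in sham animals on the log2 scale, were -3.84 for Fcgr2b, -3.51 for Gpnmb, -3.35 for Fcgr2a, -2.41 for Fcgr1a and -2.38 for Plek. They were -2.17 for Tyrobp, -1.97 for Cd68, -1.85 for Itgam, -1.82 for Itgb2, -1.78 for Slc11a1, -1.67 for Aif1 and -1.64 for Lyz2. They were smaller for Laptm5 (-1.38), Apoe (-1.15), Csf1r (-1.13), Coro1a (-0.88), Trem2 (-0.87) and Adgre1 (-0.70).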

How the results depend on the processing

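For obstruction/vehicle against sham/vehicle the count of 24 markers stayed within 1.5 times under every setting tried (21 to 27 on leaving out 1 array), and so did the 23 for obstruction/Eviprostat against obstruction/vehicle (19 to 26). No setting reversed the sign of a called marker. Median centring in place of loess lost Apoe, Lgals3, Adgre1, Cd163 and Coro1a in the first comparison and gave 10 markers, against 18, for the difference between the effects of Eviprostat (15 to 25 on leaving out 1 array). Over all probes, the refit without low spots, chosen after the data had been seen, gave 4625 higher in obstruction against 2583. The small comparisons depended on the setting. For sham/Eviprostat against sham/vehicle the scanner's log ratio gave 4 markers and the replicate block 3, also in the refit, with 0 to 1 on leaving out 1 array. For obstruction/Eviprostat against sham/Eviprostat, median centring gave 0, Cy5 alone and the refit 2, slides 2 and 3 alone 3, the replicate block 6, and the scanner's log ratio and the refit with the block 12, with 1 to 3 on leaving out 1 array. For obstruction/Eviprostat against sham/vehicle, slides 2 and 3 alone gave 1, Cy5 alone and the refit 2, the block and the 6 compared arrays 3, the scanner's log ratio 8 and the refit with the block 10, with 0 to 1 on leaving out 1 array. The cause of these differences was not tested. The block ended no call among the markers or the other lists, and the marker calls it added are printed in the report.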
